A study of Mus musculus with 9 samples.

Results

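The genes described here encode proteins of the presynaptic terminal: vesicle proteins, the fusion machinery, the active zone scaffold and the endocytic proteins that retrieve vesicle membrane. They were set as 35 gene symbols by function, with earlier results of these data known, and each symbol matched 1 of the 56748 rows of the count table. All 35 passed the filter on low counts and were among the 17171 genes tested. RNA was measured in whole brain of E14 (embryonic day 14) mice, in 9 libraries. There were 3 control libraries (wildtype, saline), 3 libraries after exposure to poly(I:C), a double-stranded RNA mimic that triggers innate immunity, and 3 after exposure to valproic acid, an antiepileptic drug and histone deacetylase inhibitor. The labels give no dose, day or route of exposure, strain, sex or litter. They do not say that the libraries of a group came from separate embryos or litters, so p-values measure the spread between these samples, which may be technical.

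At a synapse, vesicles are filled by transporters, held in clusters by synapsins and brought to the active zone by Rab3 and its RIM partners. Munc13 proteins prime them, SNARE proteins on vesicle and plasma membrane assemble to fuse the membranes when synaptotagmin senses calcium, and complexins act on the assembled SNAREs. NSF and its SNAP adaptors then take the SNAREs apart, while clathrin adaptors, amphiphysin and dynamin recover the membrane. In the embryonic brain these genes are expressed mainly in postmitotic neurons, many of which have not yet formed synapses. In bulk tissue, fewer neurons and less RNA per neuron cannot be told apart.

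Library totals ranged from 15399974 to 19883131 counts, and a member had between 154 and 7234 counts in a library. All listed markers of postmitotic neurons (16), radial glia (14) and intermediate progenitors (10) were tested, so the labelled tissue was met by its markers, while 8 of 10 muscle, skin and cartilage markers were too low to test. The 2 tested were Col2a1, with a control mean of 69.6 CPM (counts scaled to a common library size), and Acta1, with 1.74 CPM. Sex-linked RNA was not balanced. Xist, the RNA of the inactive X chromosome, stood at 981 to 1055 CPM (counts scaled to a common library size) in the valproic acid libraries and 1048 CPM in poly(I:C) replicate 3. Elsewhere it did not exceed 0.236 CPM. Y-linked RNA stood at 196 to 201 CPM in replicates 1 and 2 of both other groups and at 0 in the remaining 5 libraries, so control replicate 3 had neither Xist (0.0498 CPM) nor Y-linked RNA and is the 1 control library like the valproic acid group in its Y-linked level. Sex and valproic acid exposure cannot be told apart against control, and only poly(I:C) replicate 3 separates Xist from valproic acid.

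Across the 3 comparisons 4 of the 35 genes were called: Snap91, Rims1, Cplx1 and Ppfia2. Of all tested genes, 6.35% were called for valproic acid against control, 0.536% for poly(I:C) against control and 2.59% between the exposures. Except for Snap91 against control, each of these members' calls was lost without some single library, as given below. The promoters of the 4 genes are shown because they were called. Each line gives the 250 bases before the RefSeq transcription start on GRCm38.p6, 5′ to 3′ on the strand of the gene, with matches to the searched motifs in capitals.
Snap91, chr9:86880709-86880958, minus strand: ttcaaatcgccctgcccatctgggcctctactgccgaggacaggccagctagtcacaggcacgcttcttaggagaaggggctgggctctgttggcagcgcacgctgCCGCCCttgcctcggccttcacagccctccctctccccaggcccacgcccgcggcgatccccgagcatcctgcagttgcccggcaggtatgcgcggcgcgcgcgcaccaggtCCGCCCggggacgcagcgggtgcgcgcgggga
Rims1, chr1:22806159-22806408, minus strand: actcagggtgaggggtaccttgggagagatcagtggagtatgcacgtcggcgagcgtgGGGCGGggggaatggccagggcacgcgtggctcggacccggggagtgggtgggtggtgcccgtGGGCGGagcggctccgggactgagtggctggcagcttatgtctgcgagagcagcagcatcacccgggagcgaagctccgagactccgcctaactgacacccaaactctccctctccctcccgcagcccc
Cplx1, chr5:108550028-108550277, minus strand: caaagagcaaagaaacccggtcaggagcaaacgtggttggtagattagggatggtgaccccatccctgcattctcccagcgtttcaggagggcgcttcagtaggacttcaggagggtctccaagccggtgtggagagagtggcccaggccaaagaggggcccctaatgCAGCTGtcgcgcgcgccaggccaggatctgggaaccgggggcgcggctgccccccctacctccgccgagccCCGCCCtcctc
Ppfia2, chr10:106470060-106470309, plus strand: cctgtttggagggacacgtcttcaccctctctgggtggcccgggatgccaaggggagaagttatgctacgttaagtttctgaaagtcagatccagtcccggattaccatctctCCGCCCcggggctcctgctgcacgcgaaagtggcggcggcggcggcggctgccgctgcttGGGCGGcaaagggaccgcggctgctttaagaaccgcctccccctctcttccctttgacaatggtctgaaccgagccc
These windows had 62.4% to 71.2% G and C. The median was 58.6% over the 38 windows of members and 52.4% over 32851 RefSeq windows of this length. Each of the 4 windows shown held a GC box, GGGCGG on either strand. That motif was in 32.7% of all windows and in 19 of the 38 windows that the table lists for 29 members. The Cplx1 window also held CAGCTG, an E-box that reads the same on both strands, found in 13.0% of all windows and 9 of the 38. Neither the cAMP response element TGACGTCA (1.5% of all windows) nor the parts of the RE1 element of the neuronal repressor REST, TTCAGCACC (0.301%) and GGACAGC (5.3%), occurred in the 38, and TATAAA (12.4%) occurred in 2, both of Sv2b. All motifs were searched on both strands, and the matches shown do not overlap. Syn3, Vamp2, Nrxn2, Rims2, Syt4 and Snap25 had no entry.

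In control brain the 35 genes spanned 1.19 to 76.5 CPM per kilobase of exon, a scale that allows for gene length. The length is that of all exon bases of a gene in GENCODE M21, which can exceed the transcripts expressed. Comparisons between genes are therefore approximate. Rab3a, the vesicle GTPase, was highest at 76.5 ± 3.99 (mean ± SD, n = 3), above 97.1% of tested genes. Syt11, a synaptotagmin that does not act as a calcium sensor, followed at 69.9 ± 0.597 and the vesicle SNARE Vamp2 at 59.8 ± 2.29. Syn3, Vamp1 and Sv2c were lowest, at 1.19 ± 0.102, 1.19 ± 0.162 and 1.22 ± 0.151, and did not differ beyond their spread. Among paralogs, Cplx2 (46.3 ± 1.70) exceeded Cplx1 (27.4 ± 2.16), and Unc13a (14.5 ± 0.914) exceeded Unc13b (5.35 ± 0.258). Slc17a6 (18.4 ± 0.328), which encodes the vesicular glutamate transporter VGLUT2, exceeded Slc17a7 (8.98 ± 0.656), which encodes VGLUT1. The giant scaffold genes Bsn (7.75 ± 0.300) and Pclo (3.21 ± 0.205) lay in the lower part of the list.

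**Figure D1:**
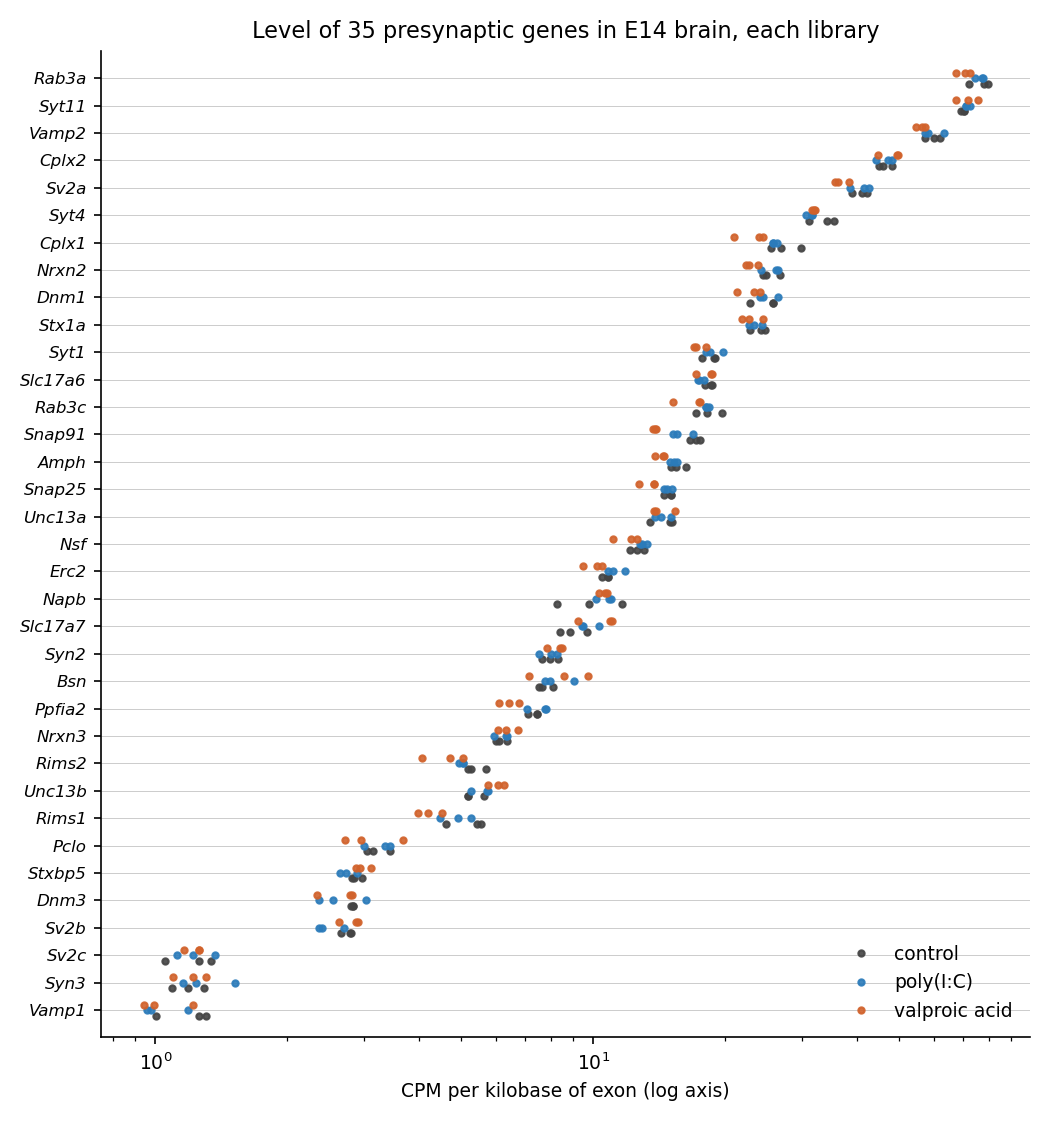
Level of each of the 35 genes as CPM per kilobase of exon (horizontal log axis) in each library, with genes ordered by control mean and 3 points per group. Control means run from 1.19 to 76.5, and the differences between groups are small beside those between genes.

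Libraries of a group repeated each other closely for these genes. Their median coefficient of variation was 4.06% in control, 4.59% with poly(I:C) and 5.34% with valproic acid, against 6.89%, 6.54% and 7.56% over all tested genes. The least even member was Napb, a SNAP adaptor of NSF, in control, at 82.2, 58.4 and 68.9 CPM in replicates 1 to 3. In the valproic acid group the scaffolds Pclo (60.8, 82.8 and 66.2 CPM) and Bsn (114, 155 and 137 CPM) were the least even, and both were highest in replicate 2 and lowest in replicate 1.

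With valproic acid, Snap91, Rims1 and Cplx1 were lower than in control and no member was higher (edgeR quasi-likelihood, Benjamini-Hochberg adjusted p under 0.05). Snap91, the clathrin adaptor AP180 of nerve terminals, was 19.3% lower, Rims1, an active zone scaffold that binds Rab3, 18.4% lower and Cplx1, a complexin, 15.6% lower. Of all tested genes, 2.78% were called lower, 3.57% higher and 6.35% in either direction. The median log2 difference of the 35 genes was -0.07 (0.00 over all tested genes), with 23 estimates below 0 and 12 above. Every valproic acid library lay below every control library in 11 genes and above in 1, as 13.0% and 12.6% of all tested genes did. At an unadjusted p under 0.05, 11 were lower and 2 higher, against 10.9% and 11.2% of all. DESeq2 called 7 members, the 3 above with Ppfia2, Sv2a and Nrxn2 lower and Unc13b higher, where it called 8.79% of the genes to which it gave an adjusted p.

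**Figure D2:**
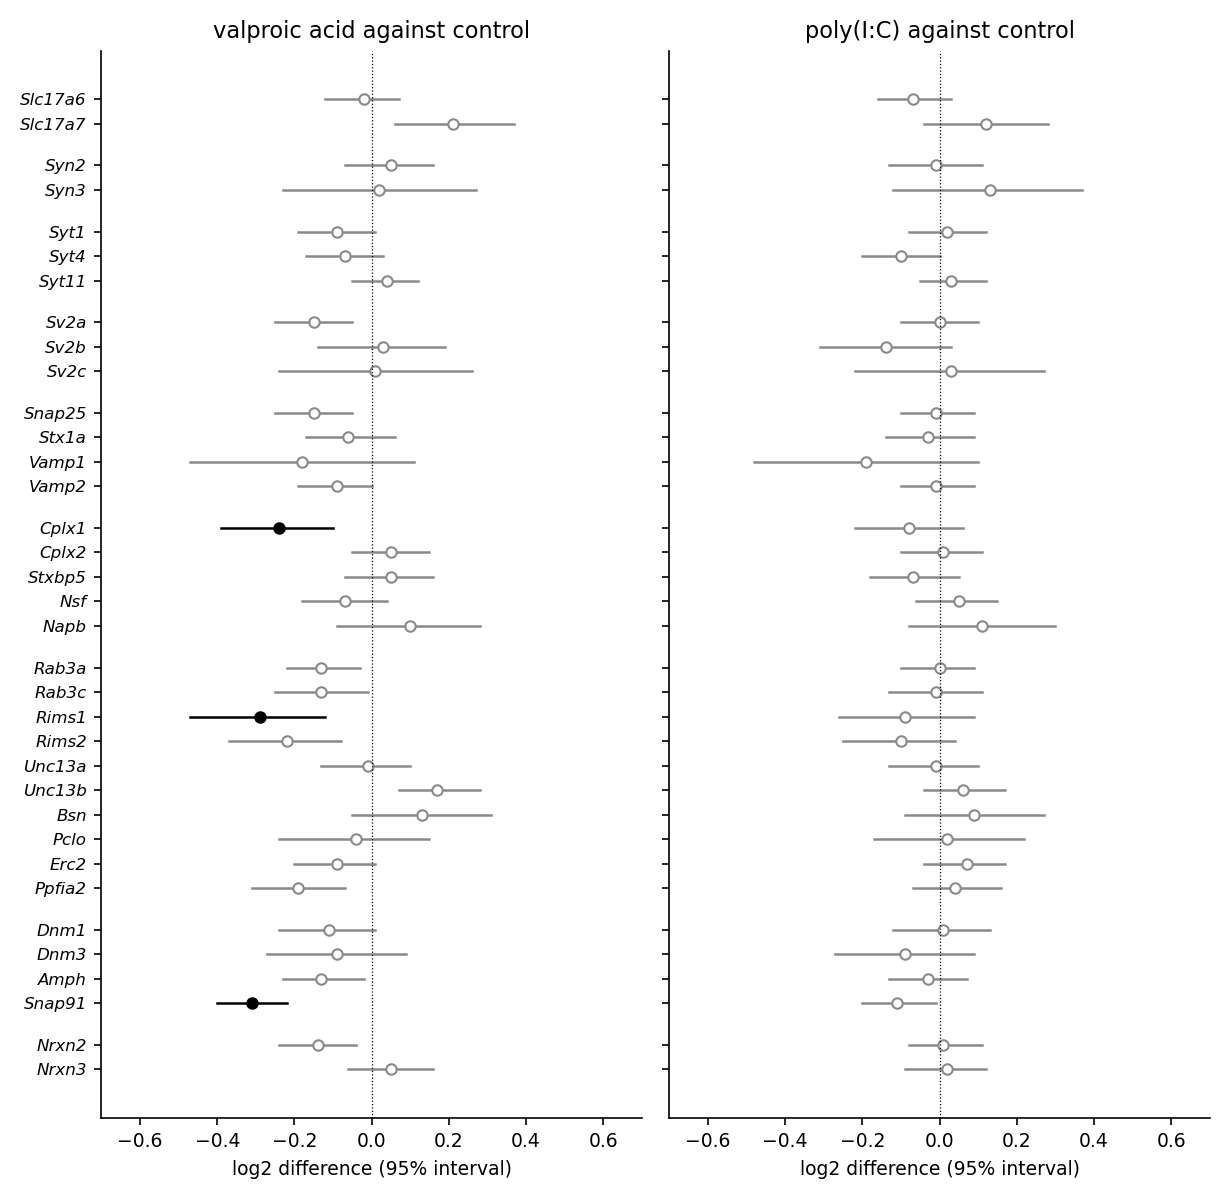
Log2 difference from control of each gene with valproic acid and with poly(I:C) (1 panel each), with the 95% interval of the edgeR fit, grouped by role. Filled black points are called genes: Snap91, Rims1 and Cplx1 with valproic acid and none with poly(I:C).

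The 4 endocytic genes all had estimates below 0, and Snap91 had the largest difference of the 35 genes. Snap91 (ENSMUSG00000033419) was at 159.9, 157 and 152 CPM in control, 139, 154 and 142 with poly(I:C) and 126, 127 and 125 with valproic acid. The valproic acid libraries lay close together and below the other 6, and poly(I:C) replicate 3, which has Xist, lay between the other poly(I:C) libraries. The log2 difference from control was -0.31 (SE 0.0433, edgeR adjusted p = 0.00117), with a 95% interval of -0.40 to -0.22. It was called without any 1 of the 6 libraries (highest adjusted p 0.00716, edgeR) and with Y-linked expression as a covariate (-0.27, adjusted p = 0.0250), but not with Xist as a covariate (-0.27, adjusted p = 0.303). Of all tested genes, 1090 were called against control without a covariate, 272 with Y-linked expression and 19 with Xist.

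Amphiphysin, Amph, was at 68.0, 73.6 and 69.9 CPM in control, 69.4, 70.2 and 67.8 with poly(I:C) and 62.5, 65.6 and 65.5 with valproic acid. All 3 valproic acid libraries were the lowest of the 9, with a log2 difference from control of -0.13 (SE 0.0482, edgeR adjusted p = 0.129). The dynamin genes Dnm1 (-0.11, 95% interval -0.24 to 0.01) and Dnm3 (-0.09, -0.27 to 0.09), whose GTPases cut vesicles free, had intervals that included 0.

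Of 5 SNARE regulators 1 was called, Cplx1 (ENSMUSG00000033615). It was at 58.9, 65.1 and 55.7 CPM in control, 56.4, 57.4 and 56.2 with poly(I:C) and 46.0, 52.3 and 53.4 with valproic acid. Valproic acid lay below both other groups, with control replicate 3 nearest to it, and the log2 difference from control was -0.24 (SE 0.0667, edgeR adjusted p = 0.0417). The call was lost without control replicate 1 (adjusted p = 0.0948) or 2 (0.151), or valproic acid replicate 1 (0.135) or 2 (0.0587). It was also lost with only the 6 libraries compared (-0.25, adjusted p = 0.0766), and with Y-linked expression (-0.19, 0.268) or Xist (-0.22, 0.604) as a covariate. Its paralog Cplx2 had means of 236 ± 13.8 CPM with valproic acid and 228 ± 8.38 in control (0.05, 95% interval -0.05 to 0.15), and the difference between the paralogs was not tested. Stxbp5, a tomosyn that limits SNARE assembly (0.05, 95% interval -0.07 to 0.16), Nsf (-0.07, -0.18 to 0.04) and Napb (0.10, -0.09 to 0.28) were not called.

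Among 10 Rab3 and active zone genes, Rims1 was called and 8 estimates were below 0. Rims1 (ENSMUSG00000041670) was at 39.9, 40.7 and 34.0 CPM in control, 32.9, 36.2 and 38.7 with poly(I:C) and 30.9, 29.3 and 33.2 with valproic acid. Control replicate 3 was close to the highest valproic acid library, and poly(I:C) replicate 1 lay within the valproic acid range. The log2 difference from control was -0.29 (SE 0.0822, edgeR adjusted p = 0.0474). This call was lost without control replicate 1 (0.152) or 2 (0.152) and without valproic acid replicate 1 (0.105), 2 (0.142) or 3 (0.0542), all edgeR adjusted p. It was also lost with only the 6 libraries compared (-0.29, adjusted p = 0.0548), and with Y-linked expression (-0.27, 0.214) or Xist (-0.46, 0.301) as a covariate.

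Its paralog Rims2 was at 59.0, 53.8 and 54.6 CPM in control, 52.3, 51.2 and 52.5 with poly(I:C) and 42.2, 49.0 and 52.3 with valproic acid. Valproic acid replicate 1 was the lowest by far and the difference from control was -0.22 (SE 0.0691, edgeR adjusted p = 0.0690). Without valproic acid replicate 1 it was -0.14 (adjusted p = 0.210) and without valproic acid replicate 3 -0.29, which was called (0.0355), and without control replicate 1 the adjusted p was 0.218. Ppfia2 (ENSMUSG00000053825), the scaffold liprin-alpha-2, was at 81.2, 81.1 and 77.5 CPM in control, 77.1, 84.9 and 84.8 with poly(I:C) and 66.6, 70.1 and 73.7 with valproic acid. Valproic acid was below the other 6 libraries, and the difference from control, -0.19 (SE 0.0541, edgeR adjusted p = 0.0508), missed the threshold; it was called without valproic acid replicate 3 (0.0478), and the highest adjusted p without 1 library was 0.145 (valproic acid replicate 1). In GENCODE M21, 24.5% of the exon bases of Ppfia2 overlap exons on the opposite strand, those of Acss3 among them. No source used here gives the strand setting of the counting, so reads from shared bases cannot be assigned to either gene with certainty. Acss3 had 1.13 ± 0.348 CPM in control, 0.946 ± 0.164 with poly(I:C) and 1.47 ± 0.263 with valproic acid (SD, n = 3).

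Unc13b, a Munc13 priming factor, had the highest estimate of the active zone genes, at 118, 128 and 118 CPM in control, 131, 130.4 and 119.8 with poly(I:C) and 131, 142 and 138 with valproic acid. Every valproic acid library exceeded every control library, and the difference, 0.17 (SE 0.0495, edgeR adjusted p = 0.0528), missed the threshold. It was called without control replicate 2 (0.0346) or valproic acid replicate 1 (0.0455), and the highest adjusted p without 1 library was 0.161 (control replicate 1). Its paralog Unc13a had means of 182 ± 10.8 CPM with valproic acid and 183 ± 11.5 in control (-0.01, 95% interval -0.13 to 0.10). Rab3a was at 177, 174 and 160.3 CPM in control, 166, 173 and 172 with poly(I:C) and 161, 157 and 149.6 with valproic acid. Valproic acid replicate 1 reached the lowest control library, and the difference from control was -0.13 (SE 0.0444, edgeR adjusted p = 0.105). Rab3c, another vesicle Rab3, had -0.13 (SE 0.0564, edgeR adjusted p = 0.177). The scaffolds Bsn (0.13, 95% interval -0.05 to 0.31), Pclo (-0.04, -0.24 to 0.15) and Erc2 (-0.09, -0.20 to 0.01) were not called.

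The 4 SNARE genes had estimates from -0.18 to -0.06 and no call. Snap25, the plasma membrane SNARE, was at 102, 98.6 and 102 CPM in control, 98.3, 103 and 100.2 with poly(I:C) and 93.3, 86.4 and 93.5 with valproic acid. The valproic acid libraries were again the lowest of the 9, with a difference from control of -0.15 (SE 0.0456, edgeR adjusted p = 0.0656). Vamp2 (-0.09, 95% interval -0.19 to 0.00), its plasma membrane partner Stx1a (-0.06, -0.17 to 0.06) and Vamp1 (-0.18, -0.47 to 0.11), with the fewest counts of the list, were not called.

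Vesicle membrane genes differed in sign. Sv2a, a vesicle glycoprotein bound by the antiepileptic levetiracetam, was at 196, 191 and 181 CPM in control, 179, 193 and 198 with poly(I:C) and 165, 168 and 178 with valproic acid. All valproic acid libraries lay below all controls, with a difference of -0.15 (SE 0.0467, edgeR adjusted p = 0.0628), while Sv2b (0.03, 95% interval -0.14 to 0.19) and Sv2c (0.01, -0.24 to 0.26) had intervals that included 0. Slc17a7 was at 47.8, 52.2 and 45.2 CPM in control, 55.6, 50.9 and 51.2 with poly(I:C) and 59.6, 58.8 and 49.7 with valproic acid. Its difference from control of 0.21 (SE 0.0736, edgeR adjusted p = 0.0995) was the highest of the 35 genes, with valproic acid replicate 3 inside the control range, and it was called without that library (0.0325). Without control replicate 3 its adjusted p was 0.289. Slc17a6 had means of 97.9 ± 4.46 CPM with valproic acid and 99.5 ± 1.77 in control (-0.02, 95% interval -0.12 to 0.07).

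The calcium sensor Syt1 (-0.09, 95% interval -0.19 to 0.01), Syt4 (-0.07, -0.17 to 0.03) and Syt11 (0.04, -0.05 to 0.12) were not called, nor were the synapsins Syn2 (0.05, -0.07 to 0.16) and Syn3 (0.02, -0.23 to 0.27). Of the neurexins, presynaptic adhesion proteins, Nrxn2 was at 342, 368 and 338 CPM in control, 333, 364 and 361 with poly(I:C) and 308, 314 and 329 with valproic acid. Its valproic acid libraries were the lowest of the 9 (difference from control -0.14, SE 0.0453, edgeR adjusted p = 0.0814). Nrxn3 had means of 80.4 ± 4.27 CPM with valproic acid and 77.4 ± 2.24 in control (0.05, 95% interval -0.06 to 0.16).

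**Figure D3:**
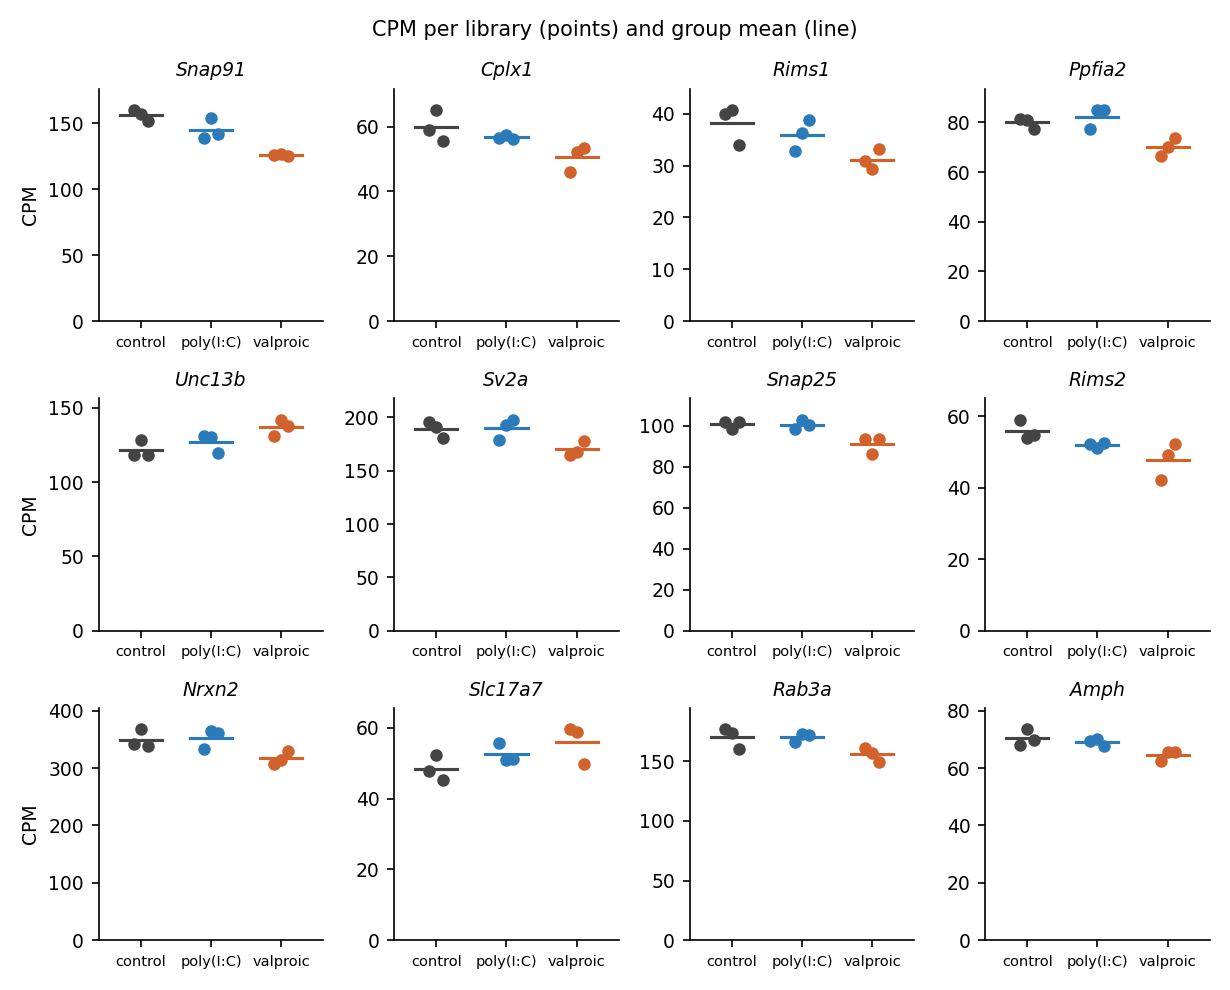
CPM in each library (points) and group means (lines) of the 4 called genes and the 8 others with the smallest p for valproic acid against control, with each vertical axis starting at 0. The valproic acid points of Snap91 sit at 125 to 127 CPM, below all others, while in Rims1 the nearest control and valproic acid points almost touch.

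Poly(I:C) gave no call among the 35 genes against control, by edgeR or by DESeq2. Of all tested genes edgeR called 0.536% (0.262% higher, 0.274% lower) and DESeq2 1.03% of those with an adjusted p. At an unadjusted p under 0.05, 2 members were lower and 0 higher, against 5.82% and 6.20% of all. These were Snap91 (-0.11, 95% interval -0.20 to -0.01, edgeR adjusted p = 0.330) and Syt4 (-0.10, -0.20 to 0.00, 0.401). The groups did not overlap in 4 genes: Rims2 and Slc17a6 were below control and Erc2 and Syt11 above, as 8.83% and 9.60% of all tested genes were. The median log2 difference was 0.00, with 18 estimates below 0 and 17 above. Intervals were narrow for abundant genes, as for Sv2a (0.00, -0.10 to 0.10), and wide for Vamp1 (-0.19, -0.48 to 0.10). The poly(I:C) and valproic acid comparisons share their control libraries.

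Compared directly, Snap91 and Ppfia2 were lower with valproic acid than with poly(I:C), 2 of 35 genes. Over all tested genes 2.59% were called, 1.18% lower and 1.42% higher. The log2 difference was -0.20 (SE 0.0434, edgeR adjusted p = 0.0255) for Snap91. For Ppfia2 it was -0.23 (SE 0.0540, edgeR adjusted p = 0.0367). The Snap91 call was lost without poly(I:C) replicate 2 (0.132) or 3 (0.0601) and without valproic acid replicate 1 (0.0615) or 3 (0.0698). The Ppfia2 call was lost without poly(I:C) replicate 2 (0.168) or 3 (0.137) and without valproic acid replicate 1 (0.108) or 2 (0.0783). With Y-linked expression as a covariate the log2 difference was -0.17 for Snap91 (edgeR adjusted p = 0.225) and -0.23 for Ppfia2 (0.189), and with Xist -0.17 (0.368) and -0.27 (0.236). Over all tested genes, 445 calls in this comparison became 111 with Y-linked expression and 39 with Xist. The Ppfia2 call was also lost with only the 6 libraries compared (0.0587). Rims1 (-0.21, SE 0.0825, edgeR adjusted p = 0.220) and Cplx1 (-0.17, SE 0.0669, edgeR adjusted p = 0.223) were not called here. The groups did not overlap in 12 genes lower and 2 higher, against 11.4% and 10.5% of all, and at an unadjusted p under 0.05 12 were lower and 2 higher, against 8.43% and 8.21%. The median was -0.06 (0.00 over all tested genes). DESeq2 called 4 members, Sv2a and Nrxn2 being the others and lower, where it called 5.18% of genes with an adjusted p.

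A further 76 tested genes of the presynaptic terminal were listed by function, with earlier results of these data known. Of these, 13 were lower and 2 higher with valproic acid than in control, with a median log2 difference of -0.08. Over all tested genes 2.78% were lower and 3.57% higher, with a median of 0.00. Rims4, a short RIM, was at 51.4, 47.6 and 46.7 CPM in control, 38.8, 47.2 and 43.7 with poly(I:C) and 34.8, 36.2 and 35.7 with valproic acid (difference from control -0.45, SE 0.0698, edgeR adjusted p = 0.00224). Ppfia4, a liprin-alpha like Ppfia2, had means of 20.2 ± 1.09 CPM with valproic acid and 28.5 ± 1.76 in control (difference -0.49, SE 0.0875, edgeR adjusted p = 0.00505). Syt16, of the synaptotagmin family, had means of 42.3 ± 0.463 CPM with valproic acid and 53.4 ± 3.37 in control (difference -0.34, SE 0.0598, edgeR adjusted p = 0.00519). In Rims4, Ppfia4 and Syt16 all 3 valproic acid libraries were the lowest of the 9. Vamp3, a vesicle SNARE of many cell types, was higher, with means of 58.5 ± 1.58 and 48.9 ± 2.07 CPM (difference 0.26, SE 0.0539, edgeR adjusted p = 0.0124). The Vamp3 call was lost without control replicate 3 (0.0584), and those of Rims4, Ppfia4 and Syt16 held without any 1 library. With Y-linked expression as a covariate Rims4 (0.0273) and Syt16 (0.0102) kept their calls, and Ppfia4 (-0.39, 0.0563) and Vamp3 (0.27, 0.0654) lost theirs. All 4 were lost with Xist as a covariate (edgeR adjusted p = 0.262 to 0.567), with log2 differences of -0.47 for Rims4, -0.41 for Syt16, -0.29 for Ppfia4 and 0.20 for Vamp3. The count of 15 was 5 without control replicate 1 or 3, 8 without control replicate 2, 9 without valproic acid replicate 1 or 2, and 2 with Y-linked expression as a covariate. Over all tested genes, 1090 calls became 467 to 789 without 1 library and 272 with Y-linked expression as a covariate.

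With poly(I:C), 2 of these 76 genes were called against control, 1 higher and 1 lower, where 0.262% and 0.274% of all tested genes were. Snapin, a SNAP25-binding protein of vesicles and lysosomes, was at 34.9, 32.8 and 32.4 CPM in control, 24.1, 20.7 and 25.2 with poly(I:C) and 28.5, 28.9 and 33.0 with valproic acid. The poly(I:C) libraries were the lowest of the 9, with a difference from control of -0.52 (SE 0.0839, edgeR adjusted p = 0.0116) that was lost without control replicate 1 (0.0641). Scamp1, a secretory carrier membrane protein, was higher, with means of 153 ± 3.06 and 134 ± 1.68 CPM (difference 0.19, SE 0.0372, edgeR adjusted p = 0.0406). The Scamp1 call was lost without any 1 of the 6 libraries (edgeR adjusted p = 0.0689 to 0.149), so the count of 2 was 1 or 0 in those fits. Over all tested genes, 92 calls became 38 to 63 in the same fits.

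Between the exposures, 6 of the 76 were lower and 1 higher with valproic acid, where 1.18% and 1.42% of all tested genes were. Those with the smallest adjusted p were Scamp1 (-0.18, SE 0.0373, edgeR adjusted p = 0.0225), Slc18a2, the vesicular monoamine transporter (-0.46, SE 0.0989, edgeR adjusted p = 0.0255), Snapin (0.37, SE 0.0849, edgeR adjusted p = 0.0349) and Syt16 (-0.25, SE 0.0600, edgeR adjusted p = 0.0429). Without poly(I:C) replicate 2 none of the 7 calls was left. The count was 1 without poly(I:C) replicate 3 or valproic acid replicate 2, 2 without valproic acid replicate 1 and 3 without valproic acid replicate 3. Over all tested genes, 445 calls became 112 without poly(I:C) replicate 2 and at most 294 without any 1 library.

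Markers of neurons, progenitors and other cell types moved with the valproic acid group, and some lists, radial glia among them, also moved with poly(I:C). Relative to the control mean, the mean log2(CPM + 1) of the 35 genes was -0.0304 to 0.0275 in control, -0.0474 to 0.0151 with poly(I:C) and -0.0911 to -0.0396 with valproic acid. The valproic acid libraries lay below control, and 1 poly(I:C) library fell within their range. On this scale 16 postmitotic neuron markers were at -0.139 to -0.0772 with valproic acid, and 5 of them were called lower than control. For this and the lists below, the shares of all tested genes called against control were 2.78% lower and 3.57% higher with valproic acid. With poly(I:C) they were 0.274% and 0.262%. Their summed level was 10543 to 10670 CPM in control, 10399 to 10920 with poly(I:C) and 9647 to 10210 with valproic acid. The 10 glutamatergic neuron markers summed to 1722 to 1792 CPM in control and 1670 to 1752 with valproic acid (1 lower). On the log2 scale they were at -0.0177 to 0.0184 in control and -0.0965 to -0.0617 with valproic acid, without overlap. The 10 GABAergic neuron markers summed to 817.2 to 856.5 CPM in control and 827.9 to 851.3 with valproic acid (0 called). On the log2 scale they were at -0.0311 to 0.0175 and -0.0192 to 0.0301. The 10 intermediate progenitor markers summed to 751.7 to 785.9 CPM in control, 790.2 to 833.1 with poly(I:C) and 946.3 to 981.9 with valproic acid. With valproic acid 7 were called higher. With poly(I:C) 1 was called higher, Neurog2 (difference from control 0.28, SE 0.0422, edgeR adjusted p = 0.00615). On the log2 scale this list was at 0.00717 to 0.0951 with poly(I:C), overlapping the control range of -0.0332 to 0.0319. The 14 radial glia markers summed to 2742 to 2800 CPM in control, 2830 to 2881 with poly(I:C) and 2949 to 3075 with valproic acid. With valproic acid 4 of them were called higher and 1 lower, and with poly(I:C) 0 were called. On the log2 scale they were at 0.0859 to 0.111 with poly(I:C) and 0.096 to 0.164 with valproic acid. Of the other lists, the 10 erythroid markers were furthest from control, at 0.342 to 0.924 with valproic acid and -0.427 to 0.146 with poly(I:C), summing to 1794 to 2093 CPM in control and 2258 to 2619 with valproic acid (4 higher). The 10 microglia markers were at -0.268 to -0.0894 with valproic acid and -0.192 to -0.109 with poly(I:C), summing to 116.8 to 123.3 CPM in control and 96.23 to 114.5 with valproic acid (2 lower). The 10 mural and meningeal markers were at -0.112 to 0.0842 (2 lower) and the 10 endothelial markers at -0.0261 to 0.0525 with valproic acid (1 higher), and no choroid plexus, oligodendrocyte precursor or muscle, skin and cartilage marker tested was called. With poly(I:C) the mural and meningeal markers were at -0.152 to -0.0759 and the endothelial markers at -0.0813 to -0.0601. The oligodendrocyte precursor markers were at 0.0622 to 0.179 with poly(I:C), and none of these 3 lists had a call there. No tested marker of these lists was at 0 in all libraries of a group, and markers too low to test were not examined. The part of the listed markers in the presynaptic differences was not tested.

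**Figure D4:**
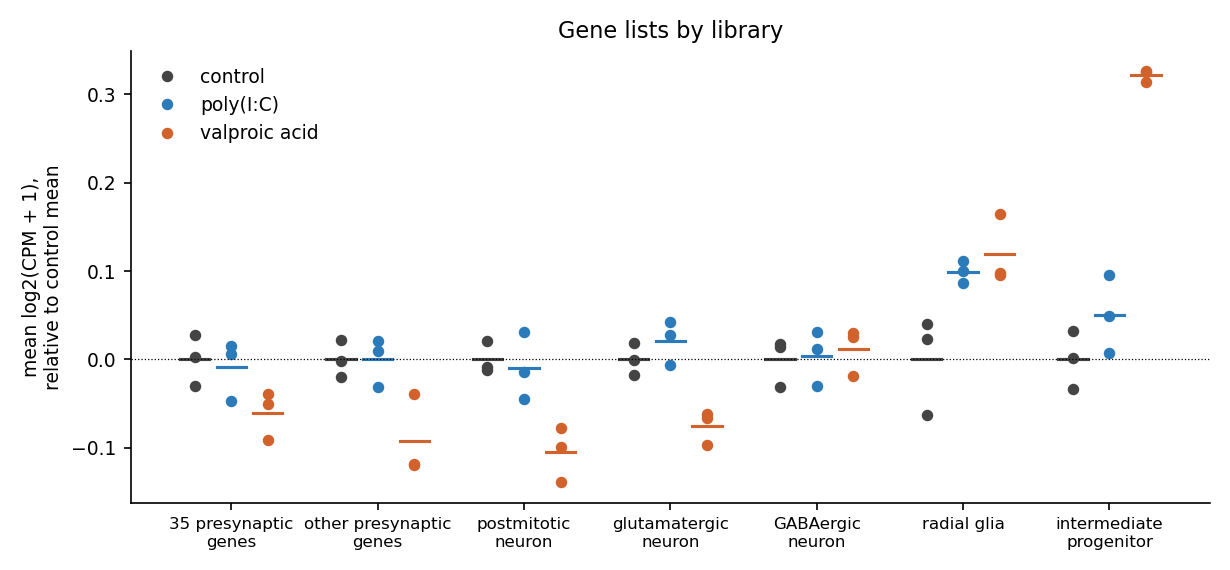
Mean log2(CPM + 1) of each gene list in each library minus the control mean of that list (vertical axis), with 3 points per group. With valproic acid the 35 presynaptic genes lie at -0.0911 to -0.0396, postmitotic neuron markers at -0.139 to -0.0772 and intermediate progenitor markers at 0.314 to 0.326.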

How the data were processed

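Libraries were made from rRNA-depleted total RNA, per the labels' protocols. The authors deposited raw counts by Ensembl gene in a single table. Per the submitters' processing notes the aligner was HISAT2 and the build GRCm39 (mm39), while the counter, its strand setting and its annotation were not stated. Symbols and exon lengths came from GENCODE M21 and promoters from RefSeq, both on the earlier GRCm38, and no coordinate was joined to the counts.

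Low-count genes were removed with filterByExpr, which asks for a count of about 10 in at least 3 libraries and 15 in total. In R 4.3.3, edgeR 4.0.16 fitted all 9 libraries together with TMM scaling (quasi-likelihood test, two-sided, Benjamini-Hochberg over 17171 genes, called under 0.05). CPM uses the TMM factors, and an SE is the estimate over the root of F. The code was tested on simulated data. Intervals cover the spread between these libraries.

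Members and lists were chosen with earlier results of these data known. Values in every library are given for called members and then those with the smallest p for valproic acid against control, 12 in all; among further genes, up to 4 called ones per comparison with the smallest adjusted p were named. Of 79 further symbols, Vamp7 was not matched and Cplx3 and Cplx4 were too low to test. Alternatives were DESeq2 1.42.0, its size factors, 2 other filters (none, and 1 CPM in 3 libraries), only the 6 libraries compared, a replicate block, sex-linked covariates and leaving out each library.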

Additional observations from a re-analysis of the deposited data

How the results depend on the processing

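For valproic acid against control, the count of 3 members called was 7 by DESeq2 (8.79% of genes called), 9 with no filter on low counts, 1 with only the 6 libraries compared, 1 adjusting for Y-linked expression, 0 adjusting for Xist, and 1 to 5 without 1 library (1 without control replicate 1 or valproic acid replicate 2, 5 without valproic acid replicate 3). For valproic acid against poly(I:C), the count of 2 was 4 by DESeq2 (5.18% of genes called) and with no filter, 1 with only the 6 libraries compared, 0 with either covariate, and 0 to 2 without 1 library (0 without poly(I:C) replicate 2, poly(I:C) replicate 3 or valproic acid replicate 1). For poly(I:C) against control it was 0 in every alternative run. Over all genes tested, the 1090 calls for valproic acid against control became 1661 of 32102 with no filter and 836 with only the 6 libraries compared. They became 272 adjusting for Y-linked expression, 19 adjusting for Xist and 467 to 789 without 1 library. The 445 between the exposures became 1057 with no filter, 348 with only the 6 libraries compared, 111 with Y-linked expression, 39 with Xist and 112 to 294 without 1 library. The median of the members for valproic acid against control was -0.10 to -0.06 without 1 library and -0.04 adjusting for Y-linked expression. It was -0.08 to -0.04 without 1 library between the exposures, and -0.03 to 0.02 for poly(I:C) against control. Of the further presynaptic genes, 15 called for valproic acid against control became 0 adjusting for Xist, 2 adjusting for Y-linked expression and 5 to 12 without 1 library. The 7 for valproic acid against poly(I:C) became 13 with no filter, 2 with only the 6 libraries compared, 0 with Xist, 2 with Y-linked expression and 0 to 5 without 1 library. The 2 for poly(I:C) against control became 4 with no filter, 1 with either covariate and 0 to 1 without 1 library (0 without control replicate 1). Over all tested genes, the 92 calls of that comparison became 464 with no filter, 86 with Y-linked expression, 42 with Xist and 38 to 63 without 1 library. The cause of these changes was not tested. No called member changed sign under any alternative run. Libraries with the same replicate number had correlations of deviations of -0.04 to 0.13, and those with other numbers -0.09 to 0.05. For poly(I:C) against control the same-number values, 0.03, 0.05 and 0.13, were at or above the other-number values. With 3 libraries per group this cannot decide whether the numbers pair libraries. With the replicate block the members called were 2, 1 and 0 for valproic acid against control, valproic acid against poly(I:C) and poly(I:C) against control, and the further genes 13, 5 and 1. Over all tested genes, 912, 340 and 88 were called with the block. It took away the calls of Rims1 against control (edgeR adjusted p = 0.0717) and of Ppfia2 against poly(I:C) (0.0528).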
